A study of Mus musculus with 80 samples.

Results

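The genes described here encode proteins with which neighbouring cells hold on to each other, seal the space between them or exchange small molecules. They are 9 of the 25965 rows of the deposited RNA table, found by their symbols: the connexin genes Gja1, Gjb5 and Gjc1, the E-cadherin gene Cdh1, the tight junction scaffold gene Tjp1, the claudin genes Cldn4, Cldn6 and Cldn7, and Epcam. All 9 had a deposited log2 level of 0 or more in 12 of 12 RNA libraries and passed the filter on low values. Gja1 was selected on its RNA values, as one of the largest falls in 2i, so its RNA values are a description without a test, and it is left out of every count of genes called in RNA. The adjusted p-values of the other 8 genes come from a fit over all 12306 tested genes and are not independent evidence, because the same RNA table was in view when the genes were listed. The histone mark H3K9me2 had no part in the choice, so its tests and counts include Gja1.

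Epithelial sheets are held together by several kinds of junction. Connexins assemble into gap junction channels, which join the cytoplasm of neighbouring cells, and one connexin can replace another in the channel only within limits set by which pairs are compatible. E-cadherin forms the adherens junction and is linked to actin through catenins, claudins form the strands of the tight junction under which ZO-1, the product of Tjp1, acts as a scaffold, and EpCAM is a surface glycoprotein that binds and stabilises claudins. Mouse embryonic stem cells (ESCs) grow as compact colonies and carry many of these proteins although they are not a polarised epithelium.

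All libraries came from E14, a wild-type mouse ESC line, and no knockout or other line is compared here. Cells in serum medium with LIF were moved to 2i, a serum-free medium with LIF, the MEK inhibitor PD0325901 and the GSK3 inhibitor CHIR99021, and RNA was sequenced in serum and after 6, 24 and 72 h (3 libraries each, 12 in all). H3K9me2 ChIP-seq was made in serum, after 24 h of 2i and in long-term 2i cells (LT2i, 2 libraries each), with 1 input library per condition. The cells of all groups were given LIF, and each 2i group received both inhibitors and lost serum at once, so that the parts of the medium change cannot be told apart.

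The RNA values are log2 levels corrected for gene length and library depth, so levels can be set side by side between genes, and the 12 libraries share a 75th percentile of 2.51. RNA depth per library is unknown, since the deposited values hold no counts. The 8 ESC markers were all above a log2 level of 0 in every group, with a summed linear level of 1013 to 1723 per library, whereas 8 fibroblast (feeder) markers summed to 5.46 to 10.7, with 4 of them below -2 in every group. Summed markers of primitive endoderm stood at 8.39 to 19.9 per library and those of neural cells at 50.0 to 53.0 in serum, 94.4 to 97.2 at 6 h, 62.4 to 78.4 at 24 h and 32.9 to 37.0 at 72 h. Most of the neural sum was 1 gene, Tubb3, at a mean log2 level of 5.38 in serum and 6.49 at 6 h. The libraries differed in how short and long genes moved. In the 3 libraries of 24 h, the fifth of tested genes with the shortest span stood at a median of 0.19 to 0.73 log2 units above serum, and the fifth with the longest span at 0.17 to 0.55 below it (-0.55 to -0.17). Replicate 3 of 24 h had the smallest of these shifts, and replicate 2 of 72 h the largest of its group (0.45 and -0.29).

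At 6 h, 1 of the 8 tested members was called (limma, adjusted p under 0.05), namely Gjc1, which fell, and 15.6% of all tested genes were called (9.13% higher, 6.48% lower). At 24 h, 5 of 8 were called, 3 higher and 2 lower, beside 63.3% of all tested genes (34.2% higher, 29.1% lower). At 72 h, 6 of 8 were called, 3 higher (Gjb5, Gjc1, Cldn4) and 3 lower (Cldn6, Epcam, Tjp1), beside 52.2% (25.7% higher, 26.5% lower). The shares of members called at 24 and 72 h were thus not far from those of all genes, and the median change of the 8 was 0.18 at 24 h and -0.10 at 72 h, against 0.11 and -0.01 over all tested genes. Between 24 and 72 h, 6 of 8 were called, 2 higher and 4 lower, where 31.6% of all tested genes were called (15.8% higher, 15.7% lower), that is 3886 genes, or 6692 without 24 h replicate 3 and 2427 without 72 h replicate 1. The 3 comparisons with serum share their 3 serum libraries. In these bulk samples, fewer cells that express a gene and less of its RNA per cell cannot be told apart.

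**Figure D1:**
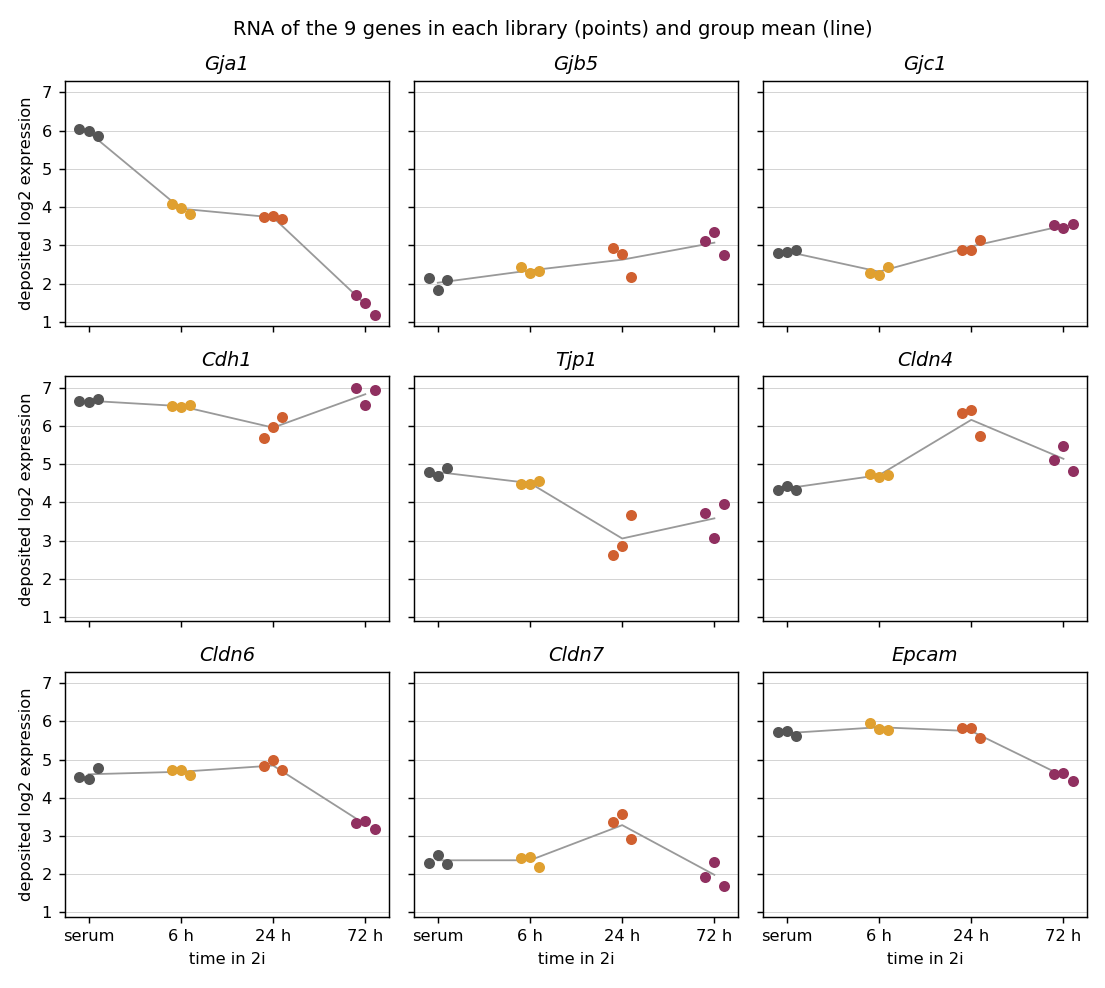
Deposited log2 expression (y axis, length- and depth-corrected) of the 9 genes in each of 12 libraries (points, 3 per group) over serum and 6, 24 and 72 h of 2i (x axis), with a line through the group means. Gja1 dropped from 5.96 to 1.46 while Gjb5 and Gjc1 ended above serum, Cldn4 and Cldn7 peaked at 24 h, and Cldn6 and Epcam stayed near their serum level until 24 h and were lower at 72 h.

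Gja1 (chr10:56377300-56390419, plus strand, GRCm38) encodes connexin 43, a connexin of many cell types including those of heart and bone. Its log2 level was 6.04, 5.99 and 5.85 in the 3 serum libraries, 4.09, 3.97 and 3.82 at 6 h, 3.75, 3.76 and 3.69 at 24 h, and 1.71, 1.49 and 1.18 at 72 h. No library of a later group overlapped with serum, and the 3 values of 72 h lay far below those of 24 h. The mean was 5.96 ± 0.09 (SD, n = 3) in serum, at percentile 94.1 of the tested genes, and 1.46 ± 0.27 (SD, n = 3) at 72 h, at percentile 27.5. Against serum it differed by -2.0 after 6 h, by -2.23 after 24 h and by -4.50 after 72 h, which is a 22.6-fold lower linear level. A more negative change was found in 45 tested genes at 6 h, in 268 at 24 h and in 34 at 72 h. Most of the drop lay within the first 6 h and between 24 and 72 h, with a difference of -0.23 between 6 and 24 h and of -2.27 between 24 and 72 h.

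The RefSeq promoter window of Gja1 (250 bases before to 50 bases after the start, GRCm38.p6, chr10:56377050-56377349, plus strand) is shown because this gene had the widest range of RNA. Of the 7 short motifs searched on both strands, it holds 1, the AP-1 motif TGANTCA, in capitals, which begins 19 bases before the start (position -19). That motif stands in 7.81% of the 32851 windows of 300 bases in the same table, and a match describes letters and is not evidence of binding.
Gja1: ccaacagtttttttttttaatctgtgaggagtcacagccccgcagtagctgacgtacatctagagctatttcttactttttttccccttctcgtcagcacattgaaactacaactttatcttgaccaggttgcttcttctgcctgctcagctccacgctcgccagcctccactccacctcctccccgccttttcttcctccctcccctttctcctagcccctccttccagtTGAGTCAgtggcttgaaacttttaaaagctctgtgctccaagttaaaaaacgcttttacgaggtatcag

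Gjb5 (chr4:127354809-127358181, minus strand), which encodes a connexin known from skin and placenta, was the least abundant member in serum. Its log2 level was 2.13, 1.82 and 2.10 in serum, 2.44, 2.27 and 2.33 at 6 h, 2.93, 2.77 and 2.17 at 24 h, and 3.11, 3.35 and 2.75 at 72 h. Every library in 2i was above every serum library, by as little as 0.04 at 24 h, where replicate 3 was lowest. Gjb5 rose by 0.60 ± 0.20 (SE) at 24 h (adjusted p = 0.0211 by limma) and by 1.05 ± 0.20 (SE) at 72 h (adjusted p = 0.00107), while its change at 6 h was 0.32 (adjusted p = 0.362). The call at 24 h was lost without serum replicate 2 (0.51, adjusted p = 0.0784), without 24 h replicate 1 (0.45, adjusted p = 0.0859) or without 24 h replicate 2 (0.53, adjusted p = 0.0751), and once the trend with gene span was removed (0.24, adjusted p = 0.117).

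Gjc1 (chr11:102799579-102819700, minus strand) encodes connexin 45, a connexin of the early heart and of smooth muscle. It was at 2.81, 2.82 and 2.88 in serum, 2.27, 2.23 and 2.44 at 6 h, 2.89, 2.88 and 3.14 at 24 h, and 3.53, 3.45 and 3.57 at 72 h. The 6 h libraries were all below serum, the 24 h libraries overlapped with serum at its upper edge, and the 72 h libraries were all above it. Gjc1 fell by 0.52 at 6 h (change -0.52 ± 0.10, SE, adjusted p = 0.00462) and rose by 0.68 ± 0.10 at 72 h (adjusted p = 0.000202), with a change of 0.14 at 24 h (adjusted p = 0.26). Between 24 and 72 h it rose by 0.54 ± 0.10 (adjusted p = 0.00235).

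The other connexins and pannexins were mostly below the filter. Of 18 listed genes in the table, 4 passed it, but Gjb2 and Gja4 passed only through libraries of the later times and are given without a test. Gjb2, the connexin gene of hereditary deafness, was at -3.92, -5.38 and -4.78 in serum, where it was barely detected, and at 0.53, 0.63 and 0.58 at 72 h. Gja4, a connexin gene of blood vessels and oocytes, was at -2.66, -3.71 and -1.27 in serum and at 0.95, 0.87 and 2.07 at 72 h. Gjb1, the main connexin of liver, fell from 0.22 to -1.30 at 72 h (change -1.52, limma, adjusted p = 0.00141), and the pannexin gene Panx1 had a change of -0.21 (adjusted p = 0.327). Gjb1 was below 0 in every library of 72 h and passed the filter through earlier ones, of which those of 6 h alone were enough.

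Added up on the linear, length-corrected scale, the RNA of Gja1, Gjb5 and Gjc1 was 69.5 to 77.0 per library in serum, 24.5 to 27.2 at 6 h, 26.2 to 28.4 at 24 h and 20.8 to 23.9 at 72 h. All libraries in 2i were far below serum. Gja1 made up 83.2 to 85.7% of this sum in serum and 10.9 to 14% at 72 h. Gjc1 contributed 9.73% (mean of 3) in serum and 50.6% at 72 h, and Gjb5 5.55% and 37.2%. These shares rest on Gja1, which was chosen for its fall, are given without a test, and cover these 3 genes, not all connexin RNA.

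**Figure D2:**
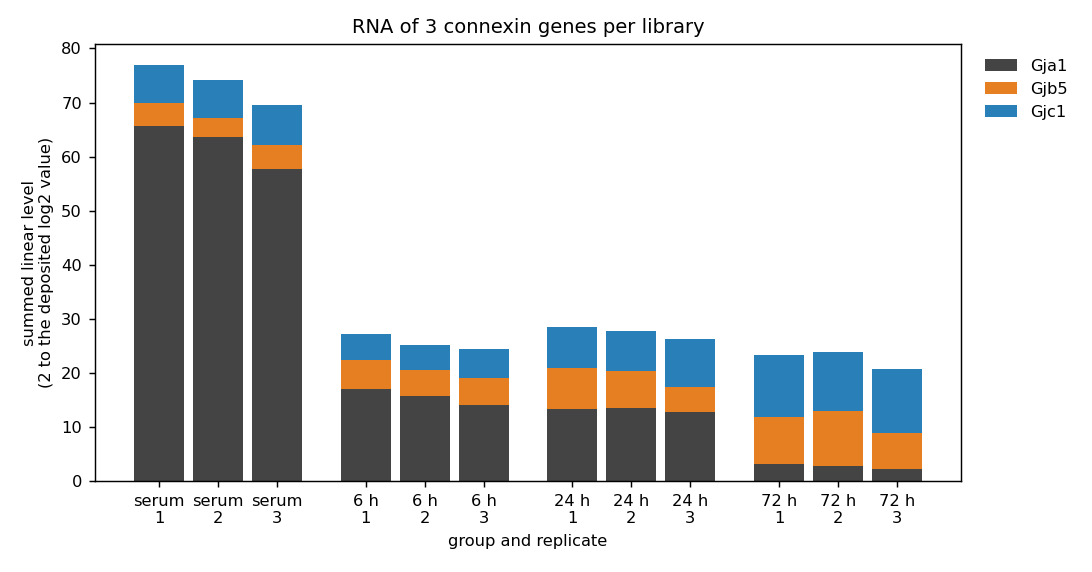
Summed linear RNA of Gja1, Gjb5 and Gjc1 (y axis, 2 to the power of the deposited log2 value) in each of the 12 libraries (bars, x axis: group and replicate), split by gene in colour. The serum bars (69.5 to 77.0) are mostly Gja1, and the 72 h bars (20.8 to 23.9) are mostly Gjc1 and Gjb5.

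Markers of trophoblast, another cell type, moved unequally beside the connexins. The summed linear level of 8 trophoblast markers was 12.9 to 15.4 in serum, 30.6 to 32.8 at 6 h, 20.4 to 25.1 at 24 h and 44.0 to 48.6 at 72 h. Most of it was Tfap2c, which went from a log2 level of 2.90 to 5.30 (change 2.39, adjusted p = 2.73e-08). Of the markers that define the lineage, Cdx2 was at -0.38 in serum, 1.24 at 6 h and -0.41 at 72 h. In the 3 libraries of 24 h it was at -1.09, -1.51 and -4.64. Cdx2 passed the filter only through libraries of 6 h and 72 h and is given without a test. Elf5 was at -3.94 in serum and -3.72 at 72 h. Eomes went from 0.59 in serum to -1.17 at 24 h and 1.03 at 72 h. Mean levels in serum and at 72 h were 0.73 and -0.91 for Hand1, 0.13 and -1.92 for Ascl2 and -0.05 and -1.17 for Gata3, which passed the filter only through libraries of serum and 6 h. Krt7, the remaining marker, went the other way, from -0.88 in serum to 0.18 at 24 h and 1.125 at 72 h. It passed only through libraries of 24 and 72 h and is given without a test. The summed neural markers given above were highest at 6 h, whereas the trophoblast sum was highest at 72 h. Of the neural markers at 6 h, Tubb3 had a change of 1.11 (limma, adjusted p = 7.18e-05) and Sox1 of -0.79 (adjusted p = 0.0154), with a median of -0.63 over the 3 tested. The part of these genes in the connexin values was not tested.

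Cdh1 (chr8:106603351-106670246, plus strand), the E-cadherin gene, was the most abundant member in serum, at percentile 96.9 of tested genes, and was lower at 24 h. Its log2 level was 6.66, 6.62 and 6.71 in serum, 6.51, 6.50 and 6.54 at 6 h, 5.68, 5.96 and 6.23 at 24 h, and 7.01, 6.54 and 6.94 at 72 h. The 24 h libraries were all below serum and spread over 0.55 log2 units, while the 72 h libraries lay on both sides of the serum range. Cdh1 fell by 0.70 at 24 h (change -0.70 ± 0.15, SE, limma, adjusted p = 0.0023) and rose again by 0.87 ± 0.15 between 24 and 72 h (adjusted p = 0.00164). At 72 h its change from serum was 0.17, with a 95% interval from -0.17 to 0.51 (adjusted p = 0.377). Cdh1 spans 66896 bp, and with the trend of change with gene span removed the change at 24 h was -0.29 (adjusted p = 0.0158) and that at 72 h 0.30 (adjusted p = 0.0147).

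Most other adherens junction genes were lower at 24 h as well. Of 13 tested adherens junction genes, 11 were called lower and 1 higher at 24 h (median change -1.09). At 72 h, 7 were called lower and 1 higher (median -0.46). Of all tested genes, 29.1% were called lower and 34.2% higher at 24 h, and 26.5% and 25.7% at 72 h. The list has long genes (median span 65724 bp), and with the span trend removed, which was applied to the lists after the data were seen, 8 were called lower and 1 higher at 24 h (median -0.68). The largest falls at 72 h were those of Cdh2, the N-cadherin gene, from 1.21 to -0.77 (change -1.98, adjusted p = 7.35e-06), and of Mllt4, the gene of the actin linker afadin, from 4.42 to 3.36 (change -1.06, adjusted p = 0.00235). Cdh2, which is in these counts, passed the filter only through libraries of serum and 6 h. Those of 6 h, which take no part in the comparison of 72 h with serum, were enough for it to pass. Lima1, which encodes an actin-binding protein of the cadherin-catenin complex, was the only gene of the list that rose, by 1.88 (adjusted p = 6.86e-06). Ctnnb1, the beta-catenin gene, had a change of -0.07 at 72 h (adjusted p = 0.59), and Ctnnd1, which encodes the p120 catenin that holds E-cadherin at the membrane, fell by 1.02 (adjusted p = 0.000549).

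Tjp1 (chr7:65296165-65371239, minus strand), the ZO-1 gene, fell at 24 h and stayed below serum at 72 h. Its log2 level was 4.80, 4.69 and 4.89 in serum, 4.47, 4.49 and 4.55 at 6 h, 2.63, 2.87 and 3.67 at 24 h, and 3.71, 3.07 and 3.96 at 72 h. All libraries from 6 h on were below all serum libraries, and the 24 and 72 h libraries overlapped with each other. Tjp1 fell by 1.74 at 24 h (change -1.74 ± 0.26, SE, adjusted p = 0.000171 by limma) and by 1.21 at 72 h (-1.21 ± 0.26, adjusted p = 0.0022). Between 24 and 72 h it changed by 0.53 (adjusted p = 0.134), which became 0.83 (adjusted p = 0.00587) without 24 h replicate 3, 0.78 (adjusted p = 0.0284) without 72 h replicate 2 and 0.21 (adjusted p = 0.321) with the span trend removed. Tjp1 has the longest span of the 9 genes (75075 bp), its order within the 24 h and within the 72 h libraries was the order of their span shifts, and with the span trend removed the change at 24 h was -1.23 (adjusted p = 4.72e-05).

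Other tight junction and polarity genes went both ways. Of 18 tested, 7 were called higher and 7 lower at 24 h, and 10 higher and 4 lower at 72 h, with median changes of -0.29 and 0.31. Over all tested genes, 34.2% were called higher and 29.1% lower at 24 h, and 25.7% and 26.5% at 72 h. With the span trend removed, 8 were called higher and 4 lower at 24 h (median 0.12). The junctional adhesion molecules Jam2 and Jam3 had the largest rises at 72 h, by 1.5 (adjusted p = 9.46e-07) and 1.26 (adjusted p = 5.02e-05). The cingulin genes Cgnl1 and Cgn, which encode cytoplasmic plaque proteins bound to ZO-1, had the largest falls, by 2.50 (change -2.50, adjusted p = 7.89e-05) and 1.95 (change -1.95, adjusted p = 2.16e-05). Tjp3, which encodes a scaffold related to ZO-1, rose by 1.03 (adjusted p = 0.000197).

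Cldn4 (chr5:134945126-134946934, minus strand), a claudin gene of tight epithelia and of the trophectoderm, peaked at 24 h. It was at 4.34, 4.44 and 4.33 in serum, 4.74, 4.67 and 4.72 at 6 h, 6.34, 6.41 and 5.74 at 24 h, and 5.11, 5.48 and 4.83 at 72 h. No 2 of the 4 groups overlapped, and at 24 h Cldn4 was the most abundant of the 9 genes. Cldn4 rose by 1.79 ± 0.19 (SE) at 24 h (adjusted p = 1.47e-05 by limma) and by 0.77 ± 0.19 at 72 h (adjusted p = 0.00492), and fell by 1.02 between those times (change -1.02, adjusted p = 0.00207). Its change at 6 h was 0.34 (adjusted p = 0.288). This change passed the threshold with quantile normalisation (0.39, adjusted p = 0.0334), with the span trend removed (0.38, adjusted p = 0.0262) and when only the 6 libraries were compared (adjusted p = 0.00528). Cldn4 spans 1809 bp, and with the span trend removed its rise at 24 h was 1.44 (adjusted p = 7.82e-07). The change was then 0.61 at 72 h (adjusted p = 0.000422) and -0.83 between 24 and 72 h (adjusted p = 0.000172).

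Cldn7 (chr11:69964779-69967885, plus strand), which encodes another claudin of tight epithelia and a binding partner of EpCAM, had the same peak at a lower level. It was at 2.30, 2.51 and 2.28 in serum, 2.44, 2.46 and 2.20 at 6 h, 3.35, 3.58 and 2.92 at 24 h, and 1.94, 2.32 and 1.69 at 72 h. The 24 h libraries lay above all others, and the 72 h libraries overlapped with serum through replicate 2. Cldn7 rose by 0.92 ± 0.19 (SE) at 24 h (limma, adjusted p = 0.00142) and fell by 1.30 from 24 to 72 h (change -1.30, adjusted p = 0.000477). Its change at 72 h against serum was -0.38 (adjusted p = 0.11), and it passed the threshold without 72 h replicate 2 (-0.55, adjusted p = 0.0324) and with the span trend removed (-0.50, adjusted p = 0.00333), where the change at 24 h was 0.56 (adjusted p = 0.00148).

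Cldn6 and Epcam held near their serum levels for the first 24 h and were lower at 72 h. Cldn6 (chr17:23679365-23682446, plus strand), a claudin gene of embryonic epithelia, was at 4.56, 4.50 and 4.79 in serum, 4.73, 4.72 and 4.6 at 6 h, 4.83, 4.98 and 4.72 at 24 h, and 3.33, 3.39 and 3.19 at 72 h. Epcam (chr17:87635979-87651106, plus strand) was at 5.73, 5.74 and 5.61 in serum, 5.95, 5.81 and 5.78 at 6 h, 5.84, 5.83 and 5.57 at 24 h, and 4.61, 4.64 and 4.45 at 72 h. For both genes the 72 h libraries were below all 9 others. Cldn6 fell by 1.31 at 72 h (change -1.31 ± 0.11, SE, limma, adjusted p = 2.47e-06), and Epcam fell by 1.13 (change -1.13 ± 0.11, SE, adjusted p = 6.57e-06). From 24 to 72 h they fell by 1.54 and 1.18 (adjusted p = 4.66e-06 and 2.4e-05). At 24 h the change was 0.23 for Cldn6 (adjusted p = 0.0926), which passed the threshold without serum replicate 3 (0.31, adjusted p = 0.0401) or without 24 h replicate 3 (0.29, adjusted p = 0.0411), and 0.05 for Epcam (adjusted p = 0.679).

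**Figure D3:**
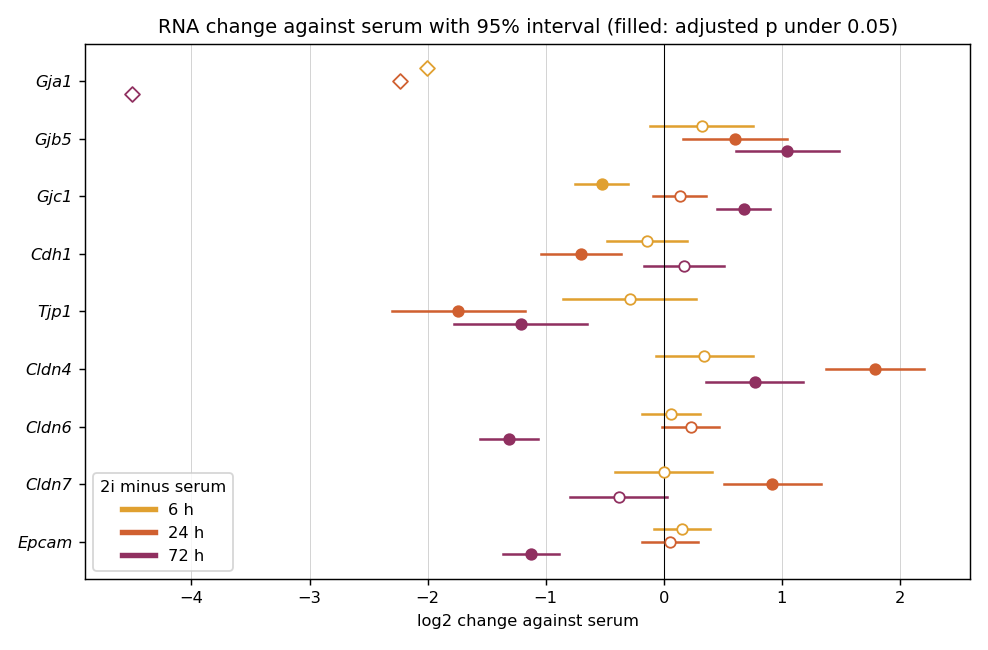
Log2 change against serum (x axis) of each of the 9 genes (y axis) at 6, 24 and 72 h of 2i, with 95% intervals from the limma fit for the 8 tested genes, filled where the adjusted p is under 0.05. Gja1 (diamonds) is drawn without interval because it was chosen for its fall, and only Gjc1 is filled at 6 h.

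Of the 8 RefSeq promoter windows of 7 members (GRCm38.p6), those of Cldn4, Cldn6, Cldn7 and Epcam are printed because they hold 1 motif 2 times. They were picked for this motif, so sharing it is not a result. Each holds the E-box CAGGTG, the core bound by Snail and Zeb factors, 2 times when both strands are read, marked in capitals (CAGGTG or CACCTG). It begins at positions -14 and 12 of Cldn4, at -93 and 41 of Cldn6, at -97 and -57 of the second window of Cldn7, and at -187 and -19 of Epcam, counted from 1 at the first transcribed base. Of all 32851 windows, 20.2% hold this E-box at least once and 2.88% hold it 2 or more times. The first window of Cldn7 (chr11:69964529-69964828), which covers the start of its deposited span, and the windows of Gja1, Gjb5 and Tjp1 hold none. The printed window of Cldn7 lies inside that span, not at its start. A match is a description of letters only. The windows are chr5:134946885-134947184 (minus strand) for Cldn4, chr17:23679115-23679414 (plus) for Cldn6, chr11:69965171-69965470 (plus) for Cldn7 and chr17:87635729-87636028 (plus) for Epcam.
Cldn4: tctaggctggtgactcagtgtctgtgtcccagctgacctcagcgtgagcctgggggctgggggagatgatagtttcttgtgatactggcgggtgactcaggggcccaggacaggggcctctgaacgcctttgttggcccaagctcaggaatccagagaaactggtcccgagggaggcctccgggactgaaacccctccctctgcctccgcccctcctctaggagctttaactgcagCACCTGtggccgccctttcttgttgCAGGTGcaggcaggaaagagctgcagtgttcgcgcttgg
Cldn6: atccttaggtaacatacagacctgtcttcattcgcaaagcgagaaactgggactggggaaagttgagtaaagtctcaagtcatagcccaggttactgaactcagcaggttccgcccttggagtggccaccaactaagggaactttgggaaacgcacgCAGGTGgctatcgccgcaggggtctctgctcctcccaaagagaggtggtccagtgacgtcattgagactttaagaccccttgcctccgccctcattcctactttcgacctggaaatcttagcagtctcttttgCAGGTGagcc
Cldn7: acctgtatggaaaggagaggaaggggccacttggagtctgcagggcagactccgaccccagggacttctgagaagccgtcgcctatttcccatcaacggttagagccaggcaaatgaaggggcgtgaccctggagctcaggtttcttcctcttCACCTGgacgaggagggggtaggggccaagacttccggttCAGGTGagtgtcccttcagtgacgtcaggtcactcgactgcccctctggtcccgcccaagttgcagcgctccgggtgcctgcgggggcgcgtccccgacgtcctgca
Epcam: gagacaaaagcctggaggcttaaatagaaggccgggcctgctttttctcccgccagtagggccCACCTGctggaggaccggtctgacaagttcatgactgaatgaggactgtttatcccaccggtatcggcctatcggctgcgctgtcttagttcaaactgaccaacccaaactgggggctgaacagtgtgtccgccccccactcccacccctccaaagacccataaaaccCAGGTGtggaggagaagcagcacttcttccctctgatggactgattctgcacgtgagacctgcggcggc

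The windows differ in their other motifs. The AP-1 motif TGANTCA stands in the window of Cldn4 2 times, at -240 and -158, and in none of the other 3 printed above. The GC box GGGCGG, present in 35.7% of all windows, occurs in all 4 and 2 times in that of Tjp1. The TEAD motif GGAATG (14.7% of all windows) is found at -1 of Cldn6 and at -70 of the first window of Cldn7, and the letters TATAAA of the TATA box (13.6%) at -243 of Gjb5 alone among the 8. The TCF/LEF motif ATCAAAG (3.73%) and the GRHL core ACCGGTT (1.02%) occur in none of the 8 windows of 7 members. No 2 of these matches overlap.

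A list of mesenchymal genes and genes of E-cadherin repressors held few rises at 72 h. Of this list, 8 of 12 were tested, and at 72 h 5 were called lower and 1 higher (median change -1.34). Of all tested genes, 26.5% were called lower and 25.7% higher at that time. The largest falls of the list were those of the smooth muscle gene Tagln, by 2.05 (adjusted p = 0.000425), and of Vim, the vimentin gene, by 1.64 (adjusted p = 1.51e-06), and the gene that rose was Fn1, the fibronectin gene, by 1.10 (adjusted p = 0.016).

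Other claudins were few in these cells. Of 22 in the table, 3 passed the filter, and 2 of them were called higher at both 24 and 72 h. The shares of all tested genes called higher were 34.2% and 25.7%. With the span trend removed, 2 of the 3 were again called higher at both times, and the median change at 24 h was 0.48 in place of 0.72. Cldn3, which lies 39279 bp from Cldn4 on chromosome 5, was at 1.07, 0.66 and 0.47 in serum, 2.68, 2.74 and 2.15 at 24 h, and 2.53, 2.84 and 2.35 at 72 h. Its rise was 1.79 at 24 h (adjusted p = 2.58e-05) and 1.84 ± 0.20 (SE) at 72 h (adjusted p = 1.96e-05), with a change of 0.05 between those times (adjusted p = 0.858). Cldn25 rose by 0.58 at 72 h (adjusted p = 0.0151). Over the 25 claudin genes of the table, summed linear RNA was 67.2 to 69.3 in serum, 109 to 156 at 24 h and 62.0 to 88.0 at 72 h. At 24 h the sum was lowest in replicate 3 (109), which had the smallest span shifts of that group. The part of span in these sums was not tested. Cldn6 made up 32.7 to 41.0% of the sum in serum and 12 to 14.7% at 72 h, and Cldn4 29.9 to 31.4% and 46.0 to 50.9%.

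In the wider epithelial programme, falls were more frequent than rises at 72 h. The keratin gene Krt7 passed the filter only through libraries of 24 and 72 h, where it was high, and Rab25, a vesicle traffic gene, only through those of serum and 6 h. Krt7 would not have passed without its libraries of 72 h, nor Rab25 without those of serum, so both are left out of the counts. Of the 14 others tested, 8 were called lower and 3 higher at 72 h (median change -0.51), after 2 lower and 4 higher at 24 h. Of all tested genes, 26.5% were called lower and 25.7% higher at 72 h, and 29.1% and 34.2% at 24 h. Esrp1, which encodes a splicing factor of epithelial cells, fell by 3.96 at 72 h (change -3.96 ± 0.17, SE, adjusted p = 1.29e-08), from 2.93, 2.94 and 3.16 in serum to -1.09, -1.14 and -0.64. Grhl2, a transcription factor gene known for the activation of Cdh1 and claudin genes, was at 3.09, 3.02 and 3.29 in serum, 1.62, 1.81 and 1.82 at 6 h, 0.61, 0.74 and 0.90 at 24 h, and -0.56, -0.50 and -0.54 at 72 h. Its fall at 72 h was 3.67 (change -3.67 ± 0.12, SE, adjusted p = 1.9e-09), and it was already called at 6 h (-1.39, adjusted p = 1.57e-05). Grhl3, a relative of Grhl2, rose by 1.33 (adjusted p = 6.24e-07).

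Desmosome genes moved both ways. Of 7 tested, 2 were called higher and 3 lower at 72 h, beside 25.7% higher and 26.5% lower of all tested genes. The desmosomal cadherin genes Dsc2 and Dsg2 rose by 1.41 (adjusted p = 7.81e-06) and 1.03 (adjusted p = 0.00477). The plakophilin genes Pkp2 and Pkp4 fell by 0.74 (change -0.74, adjusted p = 0.000188) and 0.72 (change -0.72, adjusted p = 0.00346).

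**Figure D4:**
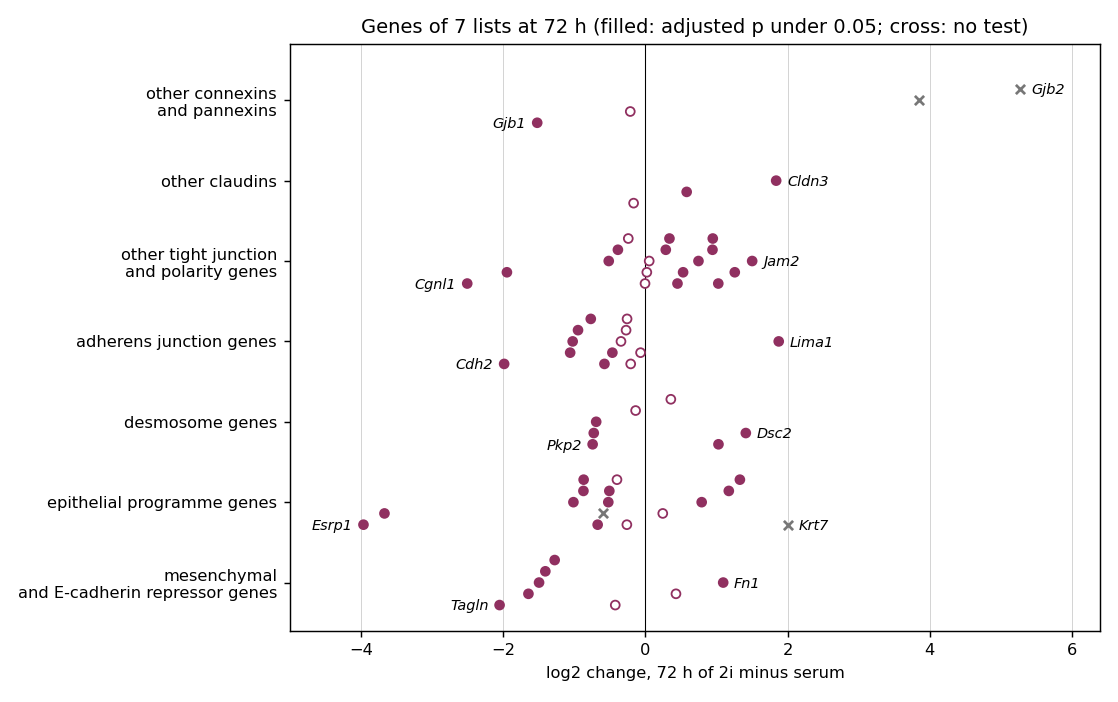
Log2 change at 72 h of 2i against serum (x axis) of each gene that passed the filter (points) in 7 lists of junction and related genes (y axis), filled where the limma adjusted p is under 0.05. Crosses mark Gjb2, Gja4, Krt7 and Rab25, drawn without a test. They would not have passed without the group where they were high (serum for Rab25, 72 h for the others). Cdh2 and Gjb1 also had no library of 72 h at 0 or more, but those of 6 h were enough for them to pass. Most filled points of the adherens, epithelial and mesenchymal rows lie below 0.

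Some members resembled each other over the 12 RNA libraries. The correlations are descriptions over points that share their 4 groups, with no p-value. Cldn6 and Epcam had Pearson's r = 0.972 (Spearman's rho = 0.748), Gjc1 and Epcam r = -0.864 (rho = -0.755), and Cdh1 and Cldn7 r = -0.943 (rho = -0.86). After the group means were taken off, r was 0.411, -0.815 and -0.722 for these pairs. Cldn4 and Tjp1 had r = -0.95 (rho = -0.979), and r = -0.961 without group means, so that libraries of 1 group with a higher Cldn4 value had a lower Tjp1 value. Among these libraries Cldn4 and Cldn7 also varied together (r = 0.922 without group means). Cldn4 spans 1809 bp and Cldn7 3107 bp, against 75075 bp of Tjp1, and the span shifts given above differ between the same libraries. The part of span in these relations was not tested.

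The tested genes whose 12 values were most like those of a member are named by Pearson's r. They were Slc27a2 (r = 0.992), Prss23 (0.986) and Tpm1 (0.984) for Gja1, and Eid1 (0.971), Klk1 (0.97) and Mt2 (0.964) for Gjb5. For Gjc1 they were Grhl3 (0.973), Shisa5 (0.97) and Mtmr7 (0.967), and for Cdh1 Lmo7 (0.988), Igf2bp3 (0.986) and Tpm3 (0.979). Stmn1 (0.991), Cnn1 (0.983) and Stmn2 (0.98) were nearest to Epcam, Doc2a (0.987), Prss50 (0.985) and Gap43 (0.984) to Cldn6, and Khk (0.985), Acadl (0.97) and Tmem98 (0.97) to Cldn7. Cldn4, with Gm10116 (0.995), Ftl1 (0.993) and 2410006H16Rik (0.993), and Tjp1, with Srrm2 (0.995), Mdn1 (0.995) and Polr2b (0.994), had by far the most such genes. At r over 0.9, 847 tested genes were like Cldn4 and 1306 like Tjp1, against 71 to 204 for the other members.

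H3K9me2 is a histone mark of silent chromatin that spreads over broad domains. It was read as reads over the gene span extended by 2 kb on each side, in 2-kb bins scaled by the authors to the library with the most reads, so that a loss shared by the whole genome would not show. Read totals in the bins ran from 14396552 to 23785128 per library, with the inputs included. Over all 9 genes and in all 6 libraries the H3K9me2 value per kb was below the input of the same condition. The mean log2 difference from input in serum ran from -3.25 (Cldn6) to -1.33 (Tjp1), each below the median of -0.54 over all tested genes, at percentiles 0.462 to 28.6. Members with at least 20 reads in the mean of the 6 libraries were tested, which left 6 of 9, as Cldn4, Cldn6 and Cldn7 had 4 to 21, 4 to 16 and 6 to 15 reads per library.

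At 24 h, H3K9me2 was not called over any of the 6 members, nor over any of the 19709 tested genes (0% called by limma, smallest adjusted p = 0.249). At an unadjusted p under 0.05 stood 1 member and 2485 genes in all, and limma voom on the whole reads, an alternative added after the data were seen, called 839 genes. The member was Tjp1, with 312 and 295 reads in serum, 163 and 163 at 24 h, and 150 and 147 in LT2i. Its change at 24 h was -0.54 ± 0.14 (SE, adjusted p = 0.31), and -0.53 (adjusted p = 0.00784) by voom.

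In LT2i, 4 of the 6 tested members were called lower (limma, adjusted p under 0.05) and none higher, where 68.3% of all tested genes were called, 59.1% lower and 9.22% higher. The median change was -0.61 over all genes and -1.21 over the 6. Gjb5 was covered by 43 and 46 reads in serum, 42 and 48 at 24 h, and 14 and 5 in LT2i, and fell by 2.19 (change -2.19 ± 0.36, SE, adjusted p = 0.00218). Gjc1, with 61 and 61 reads in serum and 26 and 13 in LT2i, fell by 1.55 (adjusted p = 0.00558). Cdh1, with 155 and 148 reads in serum and 53 and 41 in LT2i, fell by 1.54 (adjusted p = 0.00105), and Tjp1 by 0.88 (adjusted p = 0.00188). With each library set to the median of all genes, Gjb5 had a change of -1.50 (adjusted p = 0.00758), Gjc1 of -0.86 (adjusted p = 0.0441), Cdh1 of -0.85 (adjusted p = 0.0112) and Tjp1 of -0.19 (adjusted p = 0.292).

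Gja1 and Epcam were not called in LT2i. Gja1 had 79 and 59 reads in serum, 58 and 78 at 24 h, and 82 and 90 in LT2i. Its change in LT2i was 0.48, with a 95% interval from -0.02 to 0.97 (limma, adjusted p = 0.0784), at percentile 95.7 of all changes. By voom the adjusted p was 0.0278, and with each library set to the median of all genes the change was 1.17 (adjusted p = 0.00326). With the window extended to 10 kb on each side it was -0.06 (adjusted p = 0.69). Epcam had 45 and 51 reads in serum and 48 and 33 in LT2i, a change of -0.12 (interval -0.54 to 0.30, adjusted p = 0.569), which was 0.57 (adjusted p = 0.0227) after median scaling and -0.49 (adjusted p = 0.00908) with the wider window.

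Among other connexin genes, Gja4 had a change of H3K9me2 in LT2i of -2.38 ± 0.27 (SE, limma, adjusted p = 0.000582) and Gjb2 of -0.86 ± 0.36 (SE, adjusted p = 0.0695). Of the claudins, with a minimum of 5 reads in place of 20, Cldn4 fell by 1.61 in LT2i (change -1.61 ± 0.26, SE, adjusted p = 0.00264), and Cldn6 and Cldn7 had changes of -0.75 (adjusted p = 0.34) and -0.16 (adjusted p = 0.736). RNA of LT2i cells was not analysed here, so changes of H3K9me2 in LT2i have no RNA values of the same cells beside them.

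**Figure D5:**
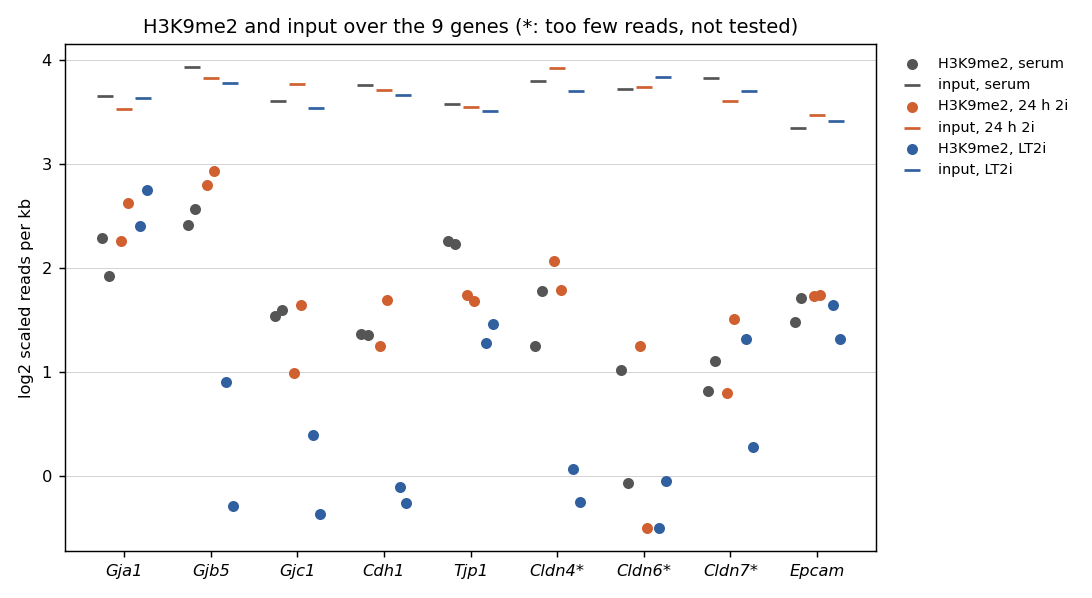
H3K9me2 ChIP-seq (dots, 2 libraries per condition) and input (dashes, 1 library per condition) as log2 scaled reads per kb (y axis) over the 9 genes (x axis) in serum, after 24 h of 2i and in LT2i. All dots lie below the input dashes. Both LT2i dots are lower than both serum dots for Gjb5, Gjc1, Cdh1, Tjp1 and Cldn4, the last with too few reads for the main test. This does not hold for Gja1, Cldn6, Cldn7 and Epcam.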

How the data were processed

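E14 RNA (3 libraries per group) and H3K9me2 ChIP-seq (2 per group, 1 input each) were analysed. Per the labels, RNA libraries were unstranded TruSeq, 50 bp single-end, and the submitters' processing notes name Trim Galore 0.3.5, TopHat2 2.0.11, Bowtie2 and Bismark 0.12.3. The authors deposited RNA as log2 values per gene (GRCm38 coordinates), corrected for length and depth and set to a common 75th percentile, with a value for 0.9 reads where there were none. The ChIP-seq values deposited are log2 read numbers in bins of 2 kb, brought to the size of the largest library. They gave whole reads for 100% of values (within 0.02). The sources used here do not name the counting tool, so reads of overlapping or antisense genes may be mixed.

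Changes were fitted with limma 3.58.1 in R 4.3.3 (empirical Bayes with trend, one mean per group) over rows with log2 of 0 or more in 3 or more of 12 RNA libraries (12306 rows), or 20 or more mean reads per window (19709 genes, 0.5 reads added before log2). P-values were Benjamini-Hochberg adjusted over all tested genes. Levels are mean ± SD and changes ± SE. The code was tested on simulated data. The members, gene lists and motifs were chosen with earlier results of these data known. Named genes were the members, their nearest genes on each side, the 3 most like each by Pearson's r, and from each list the 2 largest called rises and falls at 72 h. Genes named beyond that rule (Ctnnb1, Ctnnd1, Tjp3, Panx1, Rab25, Tfap2c, Cdx2, Elf5, Eomes, Hand1, Ascl2, Gata3, Tubb3, Sox1) were chosen after their values were seen. Some listed or neighbouring genes are not reported here and were taken out of the list counts. The study gives RNA replicates as biological. Between libraries of equal number, correlations of deviations were over 0.1 in all 3 pairs of serum with 6 h (0.159 to 0.542) and with 24 h (0.105 to 0.468). For serum with 72 h they were not (lowest 0.051). Whether they come from paired samples or from span shifts that libraries share was not tested. Bisulfite data are on another build (NCBIM37), so methylation was not analysed here.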

Additional observations from a re-analysis of the deposited data

Results flagged for a closer look

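For 6 of the 8 tested members the change from serum at 72 h differed from that at 24 h, by a test of the difference itself (limma, 72 h against 24 h, in which serum cancels). The difference was 0.54 on the log2 scale for Gjc1, with all 3 libraries of 72 h above those of 24 h. It was 0.87 for Cdh1, again with no overlap. Cldn4 had a difference of -1.02, Cldn6 of -1.54, Cldn7 of -1.30 and Epcam of -1.18, each with all 3 libraries of 72 h below those of 24 h. The share of all tested genes whose libraries did not overlap is not given here, so these separations only describe single genes. At the same threshold 31.6% of all tested genes differed between these times (3886 genes, or 6692 without 24 h replicate 3).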

How the results depend on the processing

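Of 720 RNA changes of members under other settings, 692 counted as the same, which for the 8 tested genes means direction and side of the threshold. The 720 include values of Gja1, which has no test, was chosen for its fall and was judged by its value alone. At 6 h the count of called members was 2 with quantile normalisation, 2 with the span trend removed, 3 with only the 6 libraries compared (Gjc1, and Cldn4 in each, Tjp1 in the last at adjusted p = 0.0197) and 0 when a log2 change of 1 or more was required, which left 2 at 24 h. Leaving out 1 library gave 1 to 1 at 6 h, 4 to 6 at 24 h, 6 to 7 at 72 h and 6 to 7 between 24 and 72 h. Changes near 0 turned sign: Cldn7 at 6 h (-0.012 with quantile normalisation, -0.047 to 0.085 without 1 library), Epcam at 24 h (-0.10 with quantile normalisation, -0.033 with the span trend removed), and, with that trend removed, Gjc1 (-0.014) and Cldn6 (-0.13) at 24 h. Gja1 at 72 h was -4.07 after 1 was added to the linear values, and -1.93 against 24 h. Over all tested genes, the count of 1920 called at 6 h was 3585 with only the 6 libraries compared, 652 with a log2 change of 1 or more and 1230 to 2434 without 1 library. That fold filter left 3378 of 7786 at 24 h, 2579 of 6429 at 72 h and 1174 of 3886 between 24 and 72 h, where it was 1587 with 6 libraries, 6692 without 24 h replicate 3 and 2427 without 72 h replicate 1. For H3K9me2 in LT2i, the called members were 7 of 8 with the span extended by 10 kb and 2 of 2 with a minimum of 100 reads, and 4 to 4 without 1 library. At 24 h voom called 1, and leaving out 1 library 0 to 0. Signs turned for Gja1 in LT2i with the wider span (-0.058), for Epcam at 24 h with the wider span (-0.019) and in LT2i with median scaling (0.57), and, without 1 library, for Epcam in LT2i (-0.28 to 0.043), Gjc1 at 24 h (-0.58 to 0.076) and Cdh1 at 24 h (-0.11 to 0.33). The causes were not tested. Windows of 2 kb at the gene starts gave no member 20 reads, and edgeR was not run, with limma voom on the recovered whole reads in its place.

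Libraries of equal replicate number were alike in some RNA comparisons and not in others. Correlations of same-numbered libraries ran from -0.249 to 0.813 for RNA and from 0.00805 to 0.123 for ChIP-seq, and 7 of 12 RNA libraries correlated best with their own number. With the replicate block, 1 member was called at 6 h and 5 at 24 h as without it, and 7 at 72 h, Cldn7 among them (-0.38, adjusted p = 0.0138), and no other member's call changed. Depth limits H3K9me2 at Cldn4, Cldn6 and Cldn7, and the precision of low RNA levels is unknown.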

Other observations

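Genes next to the members on the chromosome gave a mixed picture. Gm10073, 29889 bp from Cdh1, had a change of 1.52 at 24 h (limma, adjusted p = 0.00859) and of 0.34 at 72 h (adjusted p = 0.529). Tmco7 on the other side fell by 0.52 at 24 h (change -0.52, adjusted p = 0.00291), when Cdh1 fell too, and by 0.59 at 72 h (change -0.59, adjusted p = 0.00167). Gm10073 spans 496 bp and Tmco7 168372 bp, and the part of the span shifts of the libraries in these changes was not tested. Beside Epcam, Calm2 rose by 0.50 at 72 h (adjusted p = 0.0466), while Epcam fell. Tnfrsf12a, 1915 bp from Cldn6, fell at 72 h too (change -0.84, adjusted p = 0.0372), and Cldn9, 137 bp from Cldn6, was at -0.69 in serum and -1.52 at 72 h and did not pass the filter. Wbscr27, 2488 bp from Cldn4, rose by 0.69 (adjusted p = 0.00244). Rai12, 336 bp from Cldn7, had a change of -0.05 (adjusted p = 0.788) and Slc2a4, on its other side, of -0.44 (adjusted p = 0.0414).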
